A study of Mus musculus with 4 samples.

Results

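The 53 genes described here encode proteins that act on pre-mRNA splicing, and they were chosen by name from the 56883 rows of the deposited gene table. Names covered SR proteins (*Srsf*), heterogeneous nuclear ribonucleoproteins (*Hnrnp*, hnRNP), subunits of splicing factor 3a or 3b (*Sf3a*, *Sf3b*) and pre-mRNA processing factors (*Prpf*). Every row with such a name was taken, whatever its values, but the families were chosen with earlier results of these data known. This rule gave 11 SR, 20 hnRNP, 9 Sf3 and 13 Prpf genes. All 53 averaged 10 or more normalized counts over the 4 libraries and were tested.

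Total RNA was sequenced from tdTomato-positive cells sorted from the basal telencephalon of mouse embryos at E14.5 and labelled as Sst interneurons. Control embryos (*Sst-Cre/tdTomato*, 2 libraries) carried the Cre recombinase at the *Sst* locus and the tdTomato reporter. *Dnmt1* KO embryos (*Sst-Cre/tdTomato/Dnmt1 loxP2*, 2 libraries) carried the same Cre and reporter together with loxP-flanked *Dnmt1* alleles, so *Dnmt1*, the maintenance DNA methyltransferase, could be deleted only in cells that had switched on *Sst*. Each library pooled cells of several embryos. The p-values rest on the spread between these pools, partly borrowed from other genes of similar level. They do not measure the spread between embryos.

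Recovered reads per library ranged from 6970247 to 8376711. The gene-level count of *Dnmt1* was 2238 and 2341 in control and 2164 and 2210 in *Dnmt1* KO libraries, a log2 fold change of -0.07 ± 0.05 (SE; limma, adjusted p = 0.461), and transcripts that lack the floxed exons are not set apart in such a count. The interneuron genes *Sst*, *Gad1*, *Gad2* and *Lhx6* were detected in every library and were higher in *Dnmt1* KO, with log2 fold changes of 0.48, 0.63, 0.53 and 0.73.

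Splicing removes introns in a ribonucleoprotein machine, the spliceosome, that is assembled anew on each intron. SR proteins bind exonic enhancers and help the machine to find weak splice sites, whereas many hnRNPs coat nascent RNA and act at silencers, so the balance of both families helps to decide which exons are kept. Sf3a and Sf3b belong to the U2 particle that selects the branch point, and most Prpf proteins belong to or assist the U4/U6.U5 particle that carries the catalytic centre. In developing brain, changes in splicing regulators accompany the step from progenitor to neuron.

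A minority of these genes passed the test, and all but 1 of those that did were lower in *Dnmt1* KO. Genes with an adjusted p under 0.05 were called (limma on log2 of the normalized count plus 1, Benjamini-Hochberg over 14323 genes). Of the 53 genes, 11 (20.8%) were called lower and 1 (1.89%) higher, where 8.99% of all genes tested were called lower and 8.3% higher. The median log2 fold change (*Dnmt1* KO minus control) was -0.09 over the 53 genes and -0.0033 over all genes tested. Among the 44 splicing genes that averaged 500 or more normalized counts, 11 (25%) were called lower and 1 higher, against 11.9% and 21.4% of all 3130 genes at that level. Both *Dnmt1* KO libraries lay below both control libraries for 29 of the 53 genes and above them for 7, and these 2 shares over all genes tested were 29% and 28.4%. In bulk samples, fewer cells of a type and less RNA per cell cannot be told apart.

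Single libraries weighed on the count. Calls over all genes were not counted in the fits with a library left out, so the counts below have no such share beside them. Without control replicate 1, control replicate 2, *Dnmt1* KO replicate 1 or *Dnmt1* KO replicate 2 the fit called 7, 6, 8 and 7 of the 53 genes lower. The number called higher was 1 in 3 of these fits and 0 without *Dnmt1* KO replicate 1. Of the 53, only *Hnrnpa3*, *Hnrnpa2b1* and *Hnrnpa1* were called in all 4. Leaving out control replicate 1 lost *Hnrnpd*, *Hnrnpf*, *Sf3a3* and *Srsf2*, and put *Hnrnpul1* in the place of *Prpf8* as the gene called higher. Leaving out control replicate 2 lost *Hnrnpab*, *Hnrnpd*, *Hnrnph1*, *Hnrnpk* and *Hnrnpm*. *Hnrnpab*, *Hnrnpf*, *Hnrnph1* and *Hnrnpm* were lost and *Hnrnph3* gained without *Dnmt1* KO replicate 1, and *Hnrnpab*, *Hnrnpd*, *Hnrnph1* and *Hnrnpk* were lost without *Dnmt1* KO replicate 2. On whole reads recovered from the table, DESeq2 called 8 of the 53 genes lower and 1 higher, where it called 5.43% of all genes lower and 5.06% higher.

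**Figure D1:**
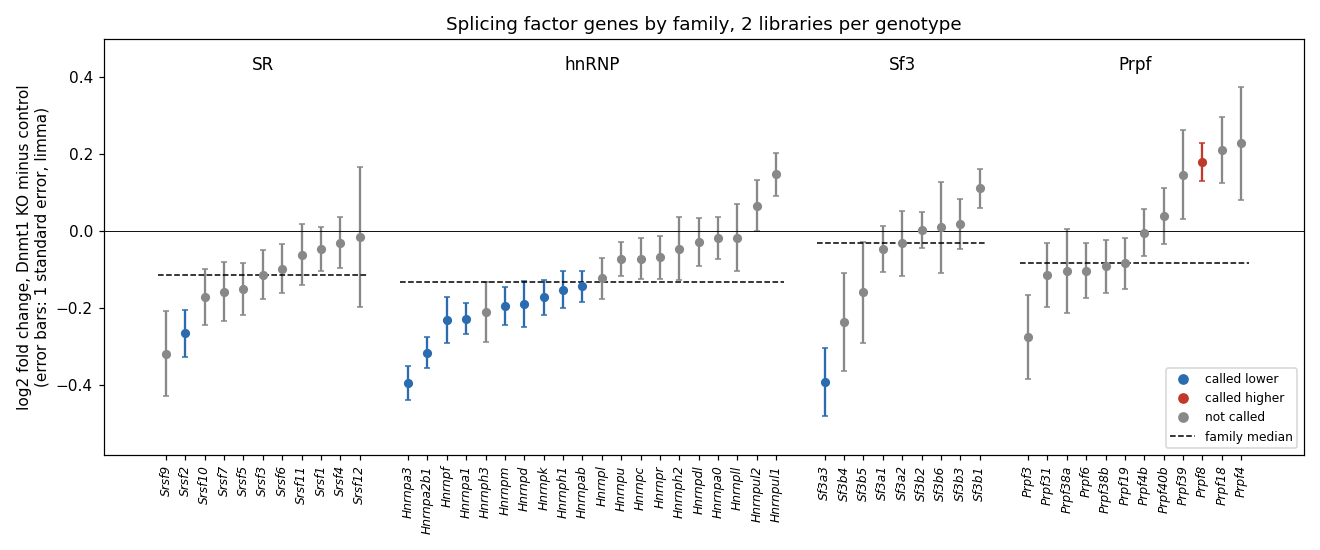
Log2 fold change of the splicing genes (vertical axis, *Dnmt1* KO minus control; point, limma estimate; bar, 1 SE), ordered within its family, with blue for called lower, red for called higher and grey for not called. Dashed lines are family medians (-0.11 for SR, -0.13 for hnRNP, -0.03 for Sf3 and -0.08 for Prpf), and 9 of the 11 blue points are hnRNP genes.

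The hnRNP family held 9 of the 11 genes called lower. That was 45% of the family, against 8.99% of all genes and 11.9% of those that averaged 500 or more normalized counts. DESeq2 called 6 of the family lower, where it called 5.43% of all genes lower. Of its 20 genes, 18 had a negative log2 fold change, none was called higher, and the median was -0.13, with single values from -0.39 to 0.15. Summed over the family, the normalized count was 76210 and 79159 in control and 70073 and 68741 in *Dnmt1* KO libraries, so both *Dnmt1* KO sums lay below both control sums. Abundant genes weigh most in this sum, so it is not separate from the calls. *Hnrnpa1*, *Hnrnpa2b1* and *Hnrnpa3*, all called lower, had control means of 10843, 8154 and 5956 and *Dnmt1* KO means of 9262, 6551 and 4532.

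Within the hnRNPs, 3 of the 4 A-type genes were called lower, where 8.99% of all genes and 11.9% of those averaging 500 or more were. The A-type proteins bind short motifs in exons and introns, often acting as silencers of splicing, and also take part in RNA transport. The windows from 250 bases before to 50 bases after the start of the canonical transcript of these 3 genes, and of the only gene called higher (*Prpf8*), are shown because DNMT1 acts on CpG sites. They were read 5′ to 3′ on the gene's strand from GRCm39 with the GENCODE gene models, and capitals mark CpG dinucleotides.
Hnrnpa3 (chr2:75489355-75489654, + strand, 45 CpG): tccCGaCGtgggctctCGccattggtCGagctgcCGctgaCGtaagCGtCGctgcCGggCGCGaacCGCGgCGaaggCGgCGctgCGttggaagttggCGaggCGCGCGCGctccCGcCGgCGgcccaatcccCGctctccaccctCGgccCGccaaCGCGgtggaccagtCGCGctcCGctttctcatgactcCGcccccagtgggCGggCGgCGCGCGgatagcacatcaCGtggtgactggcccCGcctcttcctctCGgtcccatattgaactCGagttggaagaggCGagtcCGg
Hnrnpa2b1 (chr6:51448000-51448299, - strand, 32 CpG): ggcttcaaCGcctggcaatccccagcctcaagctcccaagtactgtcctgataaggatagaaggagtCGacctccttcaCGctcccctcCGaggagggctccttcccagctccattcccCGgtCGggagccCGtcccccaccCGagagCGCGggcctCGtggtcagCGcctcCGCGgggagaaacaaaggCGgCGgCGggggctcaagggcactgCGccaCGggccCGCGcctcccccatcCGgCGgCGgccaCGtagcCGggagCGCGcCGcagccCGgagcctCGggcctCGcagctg
Hnrnpa1 (chr15:103148563-103148862, + strand, 14 CpG): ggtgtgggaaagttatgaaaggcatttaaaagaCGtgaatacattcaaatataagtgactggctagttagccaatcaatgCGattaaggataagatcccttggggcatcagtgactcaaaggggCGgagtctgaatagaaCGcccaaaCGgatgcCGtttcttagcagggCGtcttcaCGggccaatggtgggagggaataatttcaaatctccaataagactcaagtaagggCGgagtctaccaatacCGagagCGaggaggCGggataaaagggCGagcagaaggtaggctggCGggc
Prpf8 (chr11:75377370-75377669, + strand, 18 CpG): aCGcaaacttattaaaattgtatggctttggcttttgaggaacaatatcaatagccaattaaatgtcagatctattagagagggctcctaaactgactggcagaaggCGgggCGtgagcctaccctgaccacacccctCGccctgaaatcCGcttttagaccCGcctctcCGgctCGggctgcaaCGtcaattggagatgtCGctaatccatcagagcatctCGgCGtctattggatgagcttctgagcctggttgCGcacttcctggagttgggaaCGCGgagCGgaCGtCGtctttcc
The 3 genes called lower span a wide range of CpG number, and *Prpf8* lies within it. No methylation values were analysed here.

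*Hnrnpa3* (chr2:75489605-75499751, + strand, GRCm39) had the lowest estimate of the 53, although *Sf3a3*, also at -0.39, cannot be ranked apart from it. The normalized count of *Hnrnpa3* was 5887 and 6024 in control and 4632 and 4433 in *Dnmt1* KO libraries. Both *Dnmt1* KO values lay below both control values, and the log2 fold change was -0.39 ± 0.04 (SE; limma, adjusted p = 2.1e-05).

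*Hnrnpa2b1* (chr6:51435248-51448049, - strand), whose protein splices and sorts RNA, had the closest replicates of this group. Its counts were 8138 and 8169 in control and 6557 and 6545 in *Dnmt1* KO libraries. The log2 fold change was -0.32 ± 0.04 (limma, adjusted p = 6.2e-05), a fitted level that decreased by 19.7%.

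*Hnrnpa1* (chr15:103148339-103155125, + strand) was the most abundant of all 53 genes per length, at 3477 ± 153 (SD, n = 2) normalized counts per kb in control and 2970 ± 38.1 in *Dnmt1* KO. Per library its normalized count was 10505 and 11181 in control and 9346 and 9178 in *Dnmt1* KO, again without overlap. The log2 fold change was -0.23 ± 0.04 (limma, adjusted p = 0.0013).

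*Hnrnpa0*, the fourth A-type gene and one without introns, did not pass the test. Its counts of 2271, 2152, 2163 and 2204 (control replicates 1 and 2, then *Dnmt1* KO replicates 1 and 2) overlapped between genotypes, with a log2 fold change of -0.02 ± 0.06. Taken within each library, which leaves library scaling out, the ratio of *Hnrnpa3* to *Hnrnpa0* was 2.59 and 2.80 in control and 2.14 and 2.01 in *Dnmt1* KO. The same ratio for *Hnrnpa2b1* was 3.58 and 3.80 against 3.03 and 2.97. Both ratios were lower in each *Dnmt1* KO library than in either control library, a description without a test. Each divides a gene called lower by one not called, so it restates the counts above. Among further such ratios, *Hnrnpf* to *Hnrnph2* was 2.99 and 2.64 in control and 2.32 and 2.63 in *Dnmt1* KO. *Hnrnpl* to *Hnrnpll*, neither of them called, was 3.46 and 3.03 against 2.80 and 3.24, and overlapped between genotypes.

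The H and F type genes, whose proteins bind runs of G, gave 2 calls among 4, both lower, where 8.99% of all genes were called lower. *Hnrnpf* (chr6:117877257-117905485) had counts of 1883 and 1812 in control and 1529 and 1623 in *Dnmt1* KO libraries, with a log2 fold change of -0.23 ± 0.06 (limma, adjusted p = 0.015). *Hnrnph1* (chr11:50267127-50277364) had 4714 and 5078 against 4474 and 4338, with a log2 fold change of -0.15 ± 0.05 (limma, adjusted p = 0.044). Groups did not overlap for either gene, and DESeq2 called *Hnrnpf* but not *Hnrnph1*. *Hnrnph3*, at -0.21 (adjusted p = 0.082), and the X-linked *Hnrnph2*, at -0.05 (adjusted p = 0.77), were not called.

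Among the AB and D types, *Hnrnpd*, also known as AUF1 and a binder of AU-rich elements, had counts of 2280 and 2392 in control and 2149 and 1951 in *Dnmt1* KO libraries (log2 fold change -0.19 ± 0.06; limma, adjusted p = 0.041). *Hnrnpab* had 7918 and 8269 against 7302 and 7351 (-0.14 ± 0.04, adjusted p = 0.025). *Hnrnpdl*, the third gene, overlapped between genotypes, with 2319 and 2666 in control and 2437 and 2442 in *Dnmt1* KO. DESeq2 called neither *Hnrnpd* nor *Hnrnpab*. *Hnrnpdl* was at -0.03 and turned to 0.06 with the length and GC correction.

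2 further hnRNP genes of other types were called lower. *Hnrnpm*, which binds GU-rich RNA, had 3247 and 3331 normalized counts in control and 2836 and 2916 in *Dnmt1* KO libraries, a log2 fold change of -0.19 ± 0.05 (limma, adjusted p = 0.013). *Hnrnpk*, a binder of C-rich RNA, had 6821 and 7248 against 6403 and 6087, a log2 fold change of -0.17 ± 0.05 (adjusted p = 0.017). Values of the genotypes stood apart for both. With the length and GC content of the canonical transcript taken out, *Hnrnpk* was at -0.09 (adjusted p = 0.20) and was not called.

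The U-type genes, which include the nuclear scaffold protein hnRNP U, gave no call (limma; 1 of 3 had an unadjusted p below 0.05). *Hnrnpu* was at -0.07, *Hnrnpul2* at 0.07 and *Hnrnpul1* at 0.15 on the log2 fold change scale, and the adjusted p of *Hnrnpul1* was 0.082. *Hnrnpl*, a binder of CA repeats, was at -0.12 (adjusted p = 0.14), while its relative *Hnrnpll* was at -0.02. *Hnrnpc*, a binder of U tracts, and *Hnrnpr* were both at -0.07 and were not called.

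**Figure D2:**
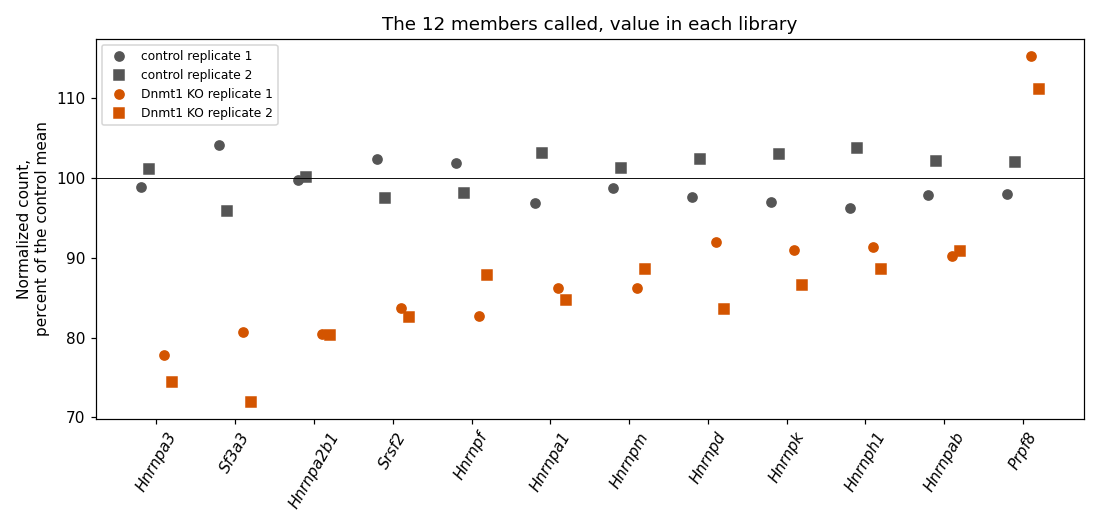
Normalized count of the 12 genes that passed the test in each of the 4 libraries, as a percent of the gene's mean over the control libraries (vertical axis); grey symbols are control, orange symbols *Dnmt1* KO, circles replicate 1 and squares replicate 2. Orange lies below grey for the 11 genes called lower, farthest for *Hnrnpa3* and *Sf3a3*, and above grey for *Prpf8*.

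SR proteins carry RNA recognition motifs followed by a stretch rich in arginine and serine, the RS domain, which is phosphorylated and docks other factors. All 11 SR genes had a negative log2 fold change in the reported fit, from -0.32 to -0.01, with a median of -0.11. The sign turned for *Srsf4* (0.03) with the length and GC correction, for *Srsf12* under quantile normalization, and for *Srsf1*, *Srsf11* or *Srsf12* when 1 library was left out, and none of these genes was called. 1 of the 11 was called lower, a share of 9.09% that is near the 8.99% over all genes, and none was called higher. Both *Dnmt1* KO libraries lay below both control libraries for 6 of the 11 and above them for 0. Over all genes tested these shares were 29% and 28.4%.

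The SR gene that passed was *Srsf2* (chr11:116740723-116744518, - strand), also known as SC35, a constituent of nuclear speckles. Its RS region holds the longest unbroken alternation of arginine and serine codons found among the 11 genes in their transcripts with the longest coding sequence, 17 codons (codons 127 to 143) in exon 2 of 2, at chr11:116743091-116743141 on the - strand of GRCm39. It is shown 5′ to 3′ because it is the feature that gives the family its name, with arginine codons in capitals and serine codons in lower case.
Srsf2: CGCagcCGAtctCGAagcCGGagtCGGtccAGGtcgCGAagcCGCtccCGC
Over its 221 codons *Srsf2* had 52 neighbouring arginine-serine codon pairs, 23.5 per 100 codons. Counts of the gene were 1576 and 1501 in control and 1288 and 1271 in *Dnmt1* KO libraries. The genotypes did not overlap, and the log2 fold change was -0.27 ± 0.06 (limma, adjusted p = 0.0074).

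*Srsf9* had a larger estimate on fewer reads and was not called. It had 344 and 309 normalized counts in control and 267 and 256 in *Dnmt1* KO libraries, with a log2 fold change of -0.32 ± 0.11 (limma, adjusted p = 0.061). *Srsf3* was the most abundant SR gene per length of the longest-coding transcript (622 ± 2.2 and 576 ± 27.6 normalized counts per kb in control and *Dnmt1* KO), but per length of the canonical transcript *Srsf5* was first, at 702 in control, and *Srsf3* was at 482. *Srsf3* had counts of 1400 and 1392 against 1248 and 1335. Its genotypes stood apart, with a log2 fold change of -0.11 ± 0.06 and an adjusted p of 0.25. *Srsf1*, the founding member of the family, overlapped between genotypes at 2608 and 2508 in control and 2360 and 2601 in *Dnmt1* KO libraries. *Srsf12* had the fewest counts, between 88.5 and 106 in every library, and a log2 fold change of -0.01 ± 0.18.

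The kinases and the phosphatase-associated gene fixed as a list around the SR proteins gave no call (limma; 2 of 8 genes tested had an unadjusted p below 0.05, and DESeq2 called none). Their median log2 fold change was -0.05. *Srpk1*, which phosphorylates SR proteins in the cytoplasm, was at -0.17 (adjusted p = 0.15), whereas *Srpk2* was at 0.14 (adjusted p = 0.19). *Srpk3* had no read in any library.

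The Sf3 genes were close to the whole table. Of 9, 1 (11.1%) was called lower and none higher, against 8.99% and 8.3% of all genes. The median log2 fold change was -0.03, with single values from -0.39 to 0.11. *Sf3a3* (chr4:124608569-124626253, + strand) encodes one of the subunits of Sf3a, a part of the U2 particle. It had 719 and 663 normalized counts in control and 557 and 497 in *Dnmt1* KO libraries, a log2 fold change of -0.39 ± 0.09 (limma, adjusted p = 0.0061), and the genotypes did not overlap.

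Its partner subunits did not pass the test, with log2 fold changes of -0.05 ± 0.06 for *Sf3a1* and -0.03 ± 0.08 for *Sf3a2*. Within each library the ratio of *Sf3a3* to *Sf3a1* was 0.467 and 0.427 in control and 0.375 and 0.329 in *Dnmt1* KO. The ratio to *Sf3a2* was 1.28 and 1.15 against 1.03 and 0.865. Both ratios were again lower in each *Dnmt1* KO library than in either control library. They too divide a gene called lower by genes not called, so they restate the counts.

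None of the 6 Sf3b genes was called (limma; 1 had an unadjusted p below 0.05, and DESeq2 called none). *Sf3b1*, whose protein grips the branch-point helix, had 2633 and 2689 normalized counts in control and 2915 and 2837 in *Dnmt1* KO libraries, a log2 fold change of 0.11 ± 0.05 (limma, adjusted p = 0.15). *Sf3b2*, the most abundant of the 9 per length, was at 3735 and 3852 against 3809 and 3796, so its genotypes overlapped. *Sf3b4* and *Sf3b5* were at -0.24 and -0.16, on 318 and 202 normalized counts in control.

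The Prpf genes included the only one of the 53 called higher. *Prpf8* (chr11:75377620-75400288, + strand) encodes the large protein that holds the catalytic centre of the spliceosome. It had 3311 and 3448 normalized counts in control and 3896 and 3759 in *Dnmt1* KO libraries, both above both control values. The log2 fold change was 0.18 ± 0.05 (limma, adjusted p = 0.019), and the call was lost without control replicate 1 and without *Dnmt1* KO replicate 1 (largest adjusted p of these fits, 0.14).

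The other 12 Prpf genes gave no call, and 3 of all 13 had an unadjusted p below 0.05. *Prpf3*, a U4/U6 protein, had 306 and 320 normalized counts in control and 253 and 264 in *Dnmt1* KO libraries (log2 fold change -0.27 ± 0.11, adjusted p = 0.098). *Prpf4*, its partner in that particle, had 140 and 175 against 181 and 186 (0.23 ± 0.15, adjusted p = 0.33), so the partners had opposite signs without either passing. *Prpf18*, which acts in the second catalytic step, had 467 and 492 against 551 and 559 (0.21 ± 0.09, adjusted p = 0.11). *Prpf31* and *Prpf6*, which hold the tri-snRNP together, were at -0.11 and -0.10. *Prpf19*, the ubiquitin ligase of the Prp19 complex and the most abundant of the 13 per length, was at 1097 and 1141 in control and 1068 and 1046 in *Dnmt1* KO libraries (-0.08 ± 0.07).

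**Figure D3:**
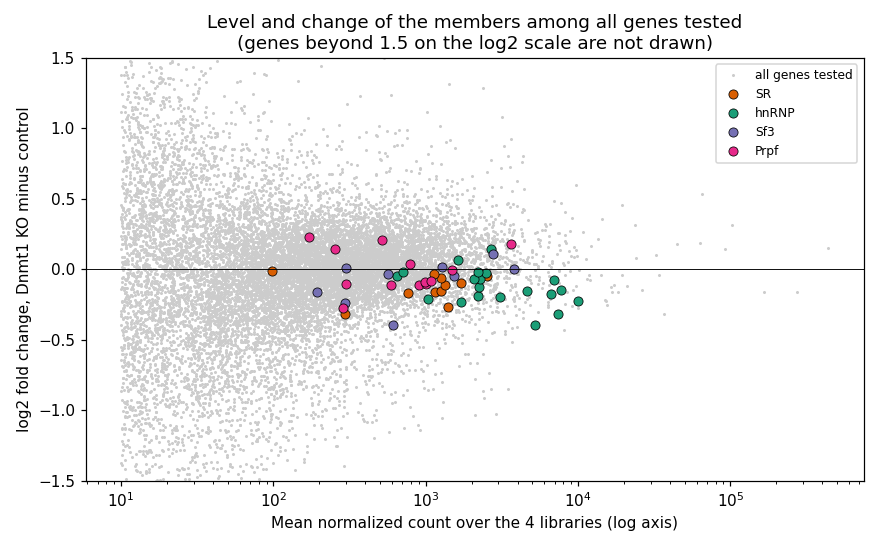
Mean normalized count over the 4 libraries (horizontal, log axis) against log2 fold change (vertical, *Dnmt1* KO minus control) for all genes tested (grey) and the 53 splicing genes coloured by family. The splicing genes lie mostly above 500 counts, where 44 of the 53 fall, and mostly below 0 on the vertical axis, 42 of 53.

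Ranked per length of the longest-coding transcript in control, the 6 highest levels were all hnRNP genes. After *Hnrnpa1* at 3477 ± 153 (SD, n = 2) normalized counts per kb came *Hnrnpa2b1* at 2744 ± 7.4, *Hnrnpk* at 2164 ± 93.0, *Hnrnph1* at 1510 ± 79.3, *Hnrnpab* at 1299 ± 39.9 and *Hnrnpc* at 1208 ± 40.9. *Srsf12* and *Prpf4* were lowest, at 33.0 ± 0.8 and 29.5 ± 4.7, and their ranges overlapped. With the Ensembl canonical transcript *Hnrnpa1* was at 6007 per kb and still first, and *Hnrnpab*, at 3889, came ahead of *Hnrnpa2b1*, at 2778. On that scale *Hnrnpc* was at 718, and *Sf3b2*, at 1164, took the sixth place.

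Transcript length and GC content moved with the change in these libraries. Over all genes the log2 fold change rose by 0.05 per doubling of transcript length, and Spearman's rho of log2 fold change with length was 0.16 over 14285 genes and 0.23 over the 53 (a description across genes, which share libraries). After the dependence on length and GC content was taken out of each library, 13 of the 53 genes were called lower and 2 higher, where 7.71% of all genes were called lower and 10.4% higher. 8 of the 11 genes called lower were shared, while *Hnrnpab*, *Hnrnph1* and *Hnrnpm* were lost. With the canonical transcript in this correction, *Hnrnpab*, *Hnrnpk* and *Hnrnpm* were the genes lost. Genes gained as lower included *Hnrnpr* (log2 fold change -0.32), *Hnrnpu* (-0.22), *Srsf10* (-0.25) and *Srsf7* (-0.28), and *Hnrnpul1* (0.25) was gained as higher. *Hnrnpa3*, *Hnrnpa2b1* and *Hnrnpa1* stayed at -0.52, -0.25 and -0.26. Among SR genes 3 were then called lower and among hnRNP genes 8. *Dnmt1*, at 0.02, changed sign in that fit without being called.

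**Figure D4:**
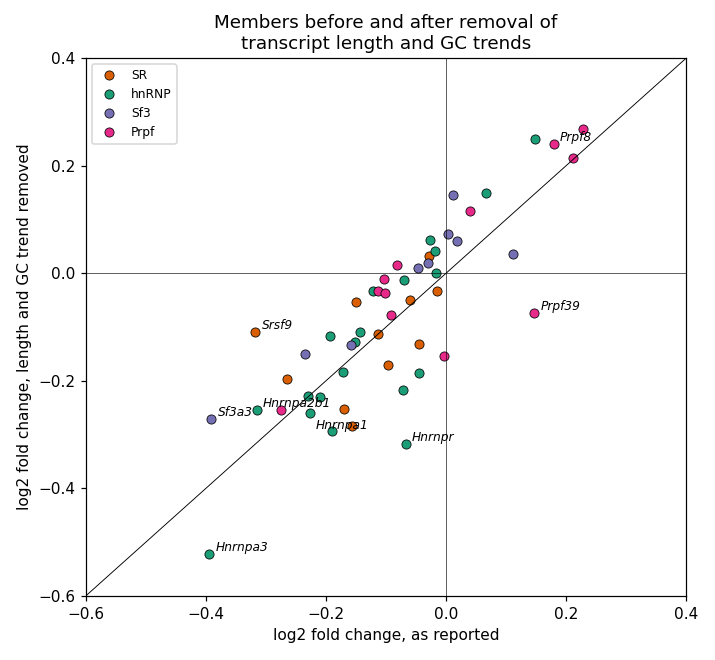
Log2 fold change of the splicing genes (*Dnmt1* KO minus control) as first fitted (horizontal) and after the dependence on length and GC content was taken out of each library (vertical), coloured by family, with the line of equality. *Hnrnpa3*, *Hnrnpa2b1*, *Hnrnpa1* and *Sf3a3* stay below 0 on both axes, *Prpf8* above 0 on both, and *Hnrnpr* lies well under the line of equality.

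Several of these genes share stretches of sequence, and can share reads, with other annotated genes. In the longest-coding transcripts, 75-base stretches also present in transcripts of another gene made up over 10% of 11 genes, among them *Hnrnpa3* (45.9%, with 39 other genes), *Hnrnpa1* (38.5%), *Hnrnpm* (28.4%), *Hnrnpk* (24.1%) and *Hnrnpf* (15.9%). For *Hnrnpm* the other gene was *Marchf2*, whose exons cover 29.7% of it on the same strand. Counts of the genes with shared stretches are uncertain to that extent. Adding the counts of annotated pseudogenes, which came to 4.71% of the level of *Hnrnpa3*, moved the log2 fold change of its means from -0.39 to -0.41. For *Hnrnpa1* it moved from -0.23 to -0.24 and for *Hnrnpf*, whose 6 pseudogenes summed to 285 and 365 normalized counts in control and 172 and 168 in *Dnmt1* KO libraries, from -0.23 to -0.32. The genes that shared most with *Hnrnpa3* (*Gm70475*, a noncoding RNA gene) and *Hnrnpa1* (*Lztfl1*, protein-coding) are not pseudogenes and were not added. No shared stretch of this length was found for *Hnrnpa2b1*, *Hnrnpab*, *Hnrnph1*, *Srsf2*, *Sf3a3* or *Prpf8*. Exons of genes on the opposite strand covered over 20% of 13 genes, such as *Srsf9* (71.7%), *Srsf2* (67.1%) and *Hnrnpa2b1* (45.4%). The library kit was stranded, but whether reads were counted by strand is not given in the sources used here. Those counts may therefore hold reads of the opposite gene. *Hnrnpa3*, *Sf3a3* and *Prpf8* had no such overlap.

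Splicing factors are known to control their own levels through unproductive transcripts that are broken down by nonsense-mediated decay (NMD). GENCODE annotated at least 1 NMD transcript for 44 of the 53 genes, in all 11 SR, 14 of 20 hnRNP, 7 of 9 Sf3 and 12 of 13 Prpf genes. *Hnrnpa1* had 27 of 51 annotated transcripts in that class and *Srsf2* 5 of 15, whereas *Hnrnpa3* and *Prpf8* had none. Gene-level counts sum productive and unproductive transcripts, so they do not measure the coding message alone.

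The promoters of these genes were mostly rich in CpG, but single windows held from 1 to 52 sites. The window of *Hnrnpm*, a gene called lower, held 1. The 300-base windows held a median of 24 CpG sites in the 53 genes, 25 in the 11 called lower, 18 over 12278 genes tested and 11 over all 21770 protein-coding genes. The GC box (GGGCGG, either strand) was found in 62.3% of the 53 windows and in 59.8% of those of genes tested, with 42.5% over all. CCAAT was in 41.5%, 39.9% and 39.9% of these sets. The ETS motif CCGGAAG was in 24.5%, 15.7% and 10.3%, the YY1 motif AAGATGG in 5.66%, 6.35% and 5.74%, and TATAAA in 5.66%, 7.51% and 13.2%. Both strands were searched for each, and none of these letters contains another. *Hnrnpa1* shares its start region head to head with *Cbx5*, which had 2730 and 2837 normalized counts in control and 2858 and 2686 in *Dnmt1* KO libraries and was not called. *Srsf2* lies in the same way next to *Mfsd11*, which was not called (log2 fold change 0.13 ± 0.18). In all, 10 of the 53 genes had such a neighbour within 1000 bases, and none of the 7 neighbours that were tested was called (limma).

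Beyond the 4 families, other splicing genes were grouped by role. Of 26 SR-related proteins, 1 (3.85%) was called lower and 3 (11.5%) higher, against 8.99% and 8.3% of all genes, with a median log2 fold change of -0.05. DESeq2 called none lower and 2 higher, and with it *Rsrc1* (adjusted p = 0.085) and *Nktr* (0.064) were not called. *Rsrc1* had 359 and 330 normalized counts in control and 245 and 264 in *Dnmt1* KO libraries (-0.43 ± 0.11, adjusted p = 0.013). *Srrm4*, the neuronal activator of microexons, had 968 and 921 against 1099 and 1222 (0.29 ± 0.07, adjusted p = 0.011), and *Nktr* had 1034 and 870 against 1124 and 1193 (0.29 ± 0.08, adjusted p = 0.023). None of the values overlapped between genotypes.

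Of 35 proteins of the small nuclear ribonucleoproteins, 3 (8.57%) were called lower and none higher by limma, with a median of -0.14, and that share is near the 8.99% over all genes. DESeq2 called none, and 10 had an unadjusted p below 0.05 with limma. *Lsm3*, of the ring that binds U6, had 264 and 259 normalized counts in control and 173 and 205 in *Dnmt1* KO libraries (-0.47 ± 0.13, adjusted p = 0.019). *Snrpa*, of the U1 particle, had 861 and 887 against 723 and 768 (-0.23 ± 0.07, adjusted p = 0.044), and with the length and GC correction it stood at -0.09 and was not called. *U2af1*, which reads the 3′ splice site, was the only call among 28 genes of splice site recognition and later steps, with 534 and 517 against 449 and 420 (-0.28 ± 0.09, adjusted p = 0.045). Calls of lower made up 3.57% of that list, against 8.99% of all genes, and its median was -0.10. *U2af1* lost its call under DESeq2 and after the length and GC trend was removed. In the exon junction complex and NMD list of 17, limma called 1 (5.88%) lower and 1 (5.88%) higher, against 8.99% and 8.3% of all genes. DESeq2 called 0 lower and 1 higher. *Rbm8a* was lower (-0.31 ± 0.10, adjusted p = 0.038; DESeq2, adjusted p = 0.17), and *Smg1*, the kinase of NMD, was higher, with 1555 and 1555 against 1912 and 1859 (0.28 ± 0.06, adjusted p = 0.0034).

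The list of neuronal and tissue splicing regulators held the most calls, 11 lower (20.8%) and 7 higher (13.2%) of 53 tested, with a median of -0.04, where 8.99% and 8.3% of all genes were called. DESeq2 called 5 lower and 4 higher, where it called 5.43% of all genes lower and 5.06% higher. *Ptbp1*, also known as hnRNP I, represses neuronal exons in progenitors. It had 665 and 609 normalized counts in control and 422 and 483 in *Dnmt1* KO libraries, a log2 fold change of -0.49 ± 0.09 (limma, adjusted p = 0.0018). Its neuronal counterpart *Ptbp2* was not called (adjusted p = 0.73), and the ratio of *Ptbp1* to *Ptbp2* within a library was 0.374 and 0.331 in control and 0.231 and 0.284 in *Dnmt1* KO. *Khdrbs3* also fell, from 1380 and 1512 to 1142 and 1075 (-0.38 ± 0.07, adjusted p = 0.0012).

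*Elavl2* and *Nova2*, RNA-binding proteins of neurons, rose. *Elavl2* had 1005 and 971 normalized counts in control and 1351 and 1325 in *Dnmt1* KO libraries (0.44 ± 0.06, adjusted p = 0.0002), and *Nova2* had 2155 and 2072 against 2828 and 2645 (0.37 ± 0.06, adjusted p = 0.0003). With the length and GC correction *Elavl2* was at 0.59 with the longest-coding transcript and at 0.20 with the canonical one (adjusted p = 0.042), so the size of its change depends on the transcript chosen. *Ptbp1*, *Khdrbs3*, *Elavl2* and *Nova2* were each called whichever library was left out, as was *Smg1*, whereas *Rsrc1*, *Srrm4*, *Nktr*, *Lsm3*, *Snrpa*, *U2af1* and *Rbm8a* each lost their call in at least 1 of the 4 fits.

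**Figure D5:**
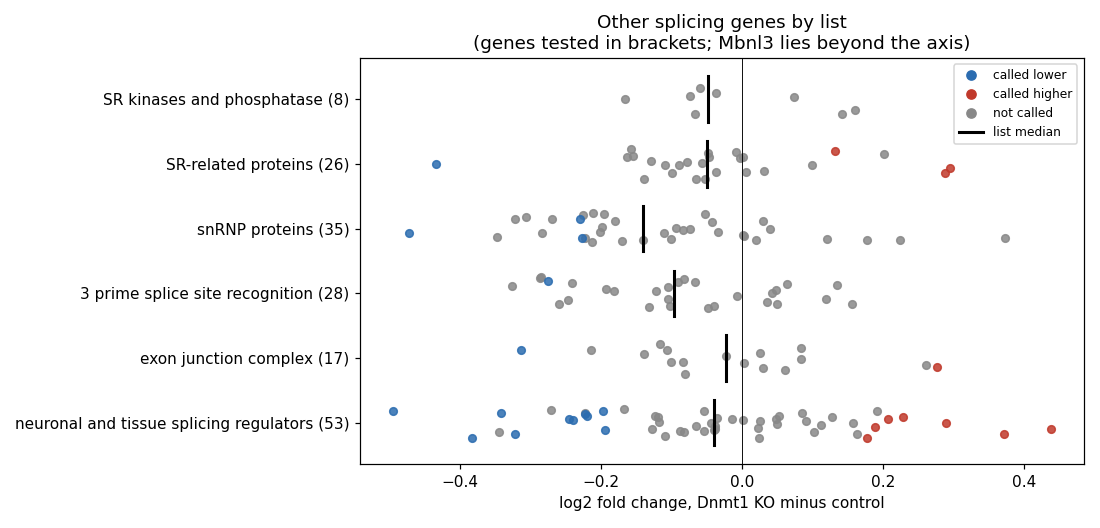
Log2 fold change (horizontal, *Dnmt1* KO minus control) of the genes in 6 lists of other splicing genes; each point is a gene, blue called lower, red called higher, grey not called, and the black bar is the list median. Red points are found mainly among the neuronal and tissue regulators (7) and the SR-related proteins (3), and the snRNP list has the lowest median, -0.14.

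Markers of other cell types and of the cell cycle moved with genotype in the same libraries as the splicing genes. Over all genes tested, limma called 8.99% lower and 8.3% higher. Of 26 cycling-cell genes, 23 were lower in *Dnmt1* KO and none higher, and their summed normalized count was 12898 and 12723 in control and 8759 and 8987 in *Dnmt1* KO libraries. Of 14 radial glia genes, 12 were lower and 1 (*Sox2*) higher, with sums of 14755 and 14700 against 9039 and 9303. The excitatory lineage list had 9 lower and 1 (*Bcl11b*) higher of 12, with sums of 6615 and 6600 against 6341 and 6105. All 8 blood genes tested were lower (sums 2615 and 2434 against 587 and 593), and 10 of 11 vascular, fibroblast and microglial genes were lower (762 and 843 against 335 and 387). Interneuron identity genes went the other way, with 15 of 16 higher and sums of 28372 and 28513 against 43676 and 44114. RNAs kept in the nucleus, listed for RNA quality, had 4 higher of 9 (126369 and 124572 against 159542 and 158061). Of the 9, 4 had a negative log2 fold change, down to -0.38, and the median was 0.06. That list holds *Kcnq1ot1*, which the authors report as raised with altered methylation after *Dnmt1* deletion, so the list does not measure RNA quality alone. The dissociation response gave no call (limma; 2 of 11 had an unadjusted p below 0.05). No gene of these lists with a row in the table was at 0 in both libraries of a genotype. All 4 sums of other cell types therefore differed between genotypes without overlap, and their part in the lower hnRNP, SR and *Ptbp1* counts was not tested.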

How the data were processed

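RNA sequencing of 2 control and 2 *Dnmt1* KO libraries was analysed. Groups and replicate numbers follow the sample labels. According to the methods and the labels, the authors used Trim Galore for trimming, STAR for alignment to GRCm39, Salmon for quantification and DESeq2 1.32.0 in R 4.3.2 for normalization of gene counts. The deposited signal is therefore a normalized count, a whole number of reads divided by a library's size factor. All 89965 values above 0 (100%) were whole multiples of 1 unit per library within 0.0001, and reads were recovered from them, 8376711 and 7276779 in control and 7744944 and 6970247 in *Dnmt1* KO libraries. Each SD rests on 2 values, and the depth limits precision for genes with few reads.

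The 14323 genes that averaged 10 or more were tested as log2(normalized count + 1), the scale of the fold changes, with limma 3.58.1 in R 4.3.3 (variance trend, genotype as the only term, Benjamini-Hochberg adjustment, called below 0.05). The fold changes understate those of genes with few counts. Reads served for edgeR 4.0.16, DESeq2 1.42.0 and limma-voom. Length, GC content and positions came from GENCODE gene models of GRCm39, which held 14285 of the genes tested, and trends were natural splines with 5 degrees of freedom each. Promoter windows were 300 bases. The limma fit was checked on simulated data. Figures used Python 3.11.15 and matplotlib 3.10.9.

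The genes and lists were chosen with earlier results of these data known. Library values were given, per family, for up to 3 called genes in each direction by log2 fold change with a mean of at least 100 and for the gene with the highest count per kb, and per list for up to 2 in each direction. The other genes given with values were chosen after these were seen, including *Hnrnpa0*, *Hnrnph1*, *Hnrnpd*, *Hnrnpab*, *Hnrnpm*, *Hnrnpk*, *Srsf9*, *Prpf3*, *Prpf4*, *Prpf18* and *Sf3b1*. *Prp4k*, *Srsf13a*, *Nhp2l1*, *Qk* and *Ahsp* matched no row by these symbols. The values of 1 gene are not reported here and are not drawn in the plots by family and of the length and GC correction, although it is counted.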

Additional observations from a re-analysis of the deposited data

How the results depend on the processing

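Of the results above, the count of genes called lower stayed within 1.5 times of 11 under other pseudocounts (0.5 and 10), filters (means of 1 and 50), TMM and quantile normalization, edgeR, DESeq2, limma-voom and both length and GC corrections. No share over all genes is given for the other pseudocounts and filters, TMM, quantile normalization, edgeR or limma-voom. Without limma's variance trend 0 of the 53 genes were called lower and 0 higher (6 had an unadjusted p below 0.05, all lower), and 0 of all genes were called (3339 at that unadjusted p). Quantile normalization called 0 higher and gave medians of -0.16 for SR, -0.18 for hnRNP and -0.064 for Sf3. With the length and GC trend removed 2 were called higher and the medians were 0.020 for Sf3 and -0.034 for Prpf. With the canonical transcript's length and GC content, an alternative chosen after seeing the data, 2 were called higher and the medians were -0.17 for SR, 0.021 for Sf3 and -0.036 for Prpf. The causes were not tested. Over all genes DESeq2 called 687 lower and 640 higher, where limma called 1287 and 1189. Leaving out 1 library at a time gave 6 to 8 called lower, 0 to 1 called higher, and medians of -0.12 to -0.11 for SR, -0.15 to -0.10 for hnRNP, -0.078 to 0.0010 for Sf3 and -0.098 to -0.033 for Prpf; where this left 1 library in a group, limma assumed that it varied like the other group. The sign of 18 of the 53 genes turned under at least 1 alternative, of 7 under each length and GC correction and of 13 with 1 library left out, and none of these had been called. Those named by rule were *Sf3b2* (-0.064 under quantile normalization, and -0.019 to 0.026 with 1 library left out, negative without control replicate 1), *Prpf19* (0.014 and 0.0060 with the 2 length and GC corrections) and, outside the 53, *Dnmt1* (0.018 and 0.016 with the same).

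The labels give both genotypes the replicate numbers 1 and 2 but name no shared litter or day. The deviations of libraries with the same number correlated at -0.08, and with 2 pairs this does not show pairing. With a replicate block 13 genes were called lower and 1 higher. The share of all genes called in that fit is not given, so these counts have no background beside them. All 11 genes remained, with *Hnrnph3* and *Srsf9* added.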
